A study of Homo sapiens with 9 samples.

Results

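In COR-L279 cells treated with the bromodomain inhibitor JQ1, 10 genes of the Notch pathway were followed: the ligand genes DLL1, DLL3, DLL4, JAG1 and JAG2, the receptor genes NOTCH1, NOTCH2 and NOTCH3, and the target genes HES1 and HEY1. They were chosen by name for their roles, with earlier results of these data known, as 10 of the 57820 genes with deposited values. Of these 10, 9 were among the 17518 genes of the authors' normalized count table, in which counts are divided by 1 size factor per library, and all 9 passed the filter on low values, as did 17514 genes in all. NOTCH1 had only FPKM values, which are scaled for transcript length and library size. At 1.5 µM JQ1, HES1, DLL1, DLL3, DLL4, JAG2 and NOTCH3 were lower than in DMSO, by 2.28-fold to 6.25-fold, while JAG1 was 2.25-fold higher, HEY1 1.45-fold higher and NOTCH2 1.21-fold higher.

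Notch receptors are surface proteins that are cut after a Delta-like or Jagged ligand on a neighbouring cell binds them. The freed inner part enters the nucleus, joins the DNA-binding protein RBPJ and turns on genes of the HES and HEY families of transcriptional repressors. Small cell lung cancer (SCLC) of the neuroendocrine kind is known for low Notch activity and high DLL3, an inhibitory ligand, while HES1 is known as a mark of its non-neuroendocrine cells.

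COR-L279 is an established human SCLC line, which the labels give as genotype WT and subtype SCLC-N, the subtype named for the transcription factor NEUROD1. JQ1 keeps the BET proteins from binding acetylated histones. Cells received the vehicle DMSO, 0.5 µM JQ1 or 1.5 µM JQ1 for 24 h, with 3 biological replicates in each group and 9 total-RNA libraries in all. All values come from 1 line, and what separates the replicates is not given further, so p-values measure the spread between these samples.

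The libraries held 60721187 (0.5 µM replicate 2) to 88482001 (DMSO replicate 2) reads in genes. The labelled subtype was checked against its markers, and the summed FPKM of 9 genes that tell SCLC subtypes and neuroendocrine cells apart, INSM1 and CHGA among them, was 1325 to 1345 in DMSO, 1297 to 1304 at 0.5 µM and 1273 to 1299 at 1.5 µM. NEUROD1 had 264 to 271 FPKM in DMSO, 348 to 363 at 0.5 µM and 357 to 365 at 1.5 µM, whereas POU2F3, which marks another SCLC subtype, stayed at or under 0.10 FPKM. Across all tested genes, 70% passed the limma test (Benjamini-Hochberg adjusted p under 0.05) at 0.5 µM against DMSO and 73.1% at 1.5 µM against DMSO. Both comparisons use the same 3 DMSO libraries. A fold change is relative to the bulk of genes, and in bulk RNA fewer cells of a type and less RNA per cell cannot be told apart.

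Of the 6 JQ1 libraries, 3 stood apart (0.5 µM replicate 3, 1.5 µM replicates 1 and 2). They had 1476 to 2071 normalized counts of H19, while H19 was at 1.04 to 8.22 in the 3 remaining JQ1 libraries and at 63.8 to 82.8 in the vehicle group. SLC2A3, a glucose transporter gene, had 390.5 to 489 normalized counts in these 3 libraries and 0 to 3.52 in the remaining 6. COL3A1, a collagen gene of fibroblasts, had 1022 to 1147 in these 3 and 25.8 to 96.4 in the remaining 6. For each of the 9 measured Notch genes, the ranges of these 3 libraries and of the other 3 JQ1 libraries overlapped. Without these 3 libraries, 8 of 9 Notch genes passed at 0.5 µM. At 1.5 µM only 1 library was left, so calls at that dose are not given here. Every tested Notch gene kept its direction at 1.5 µM against DMSO, with NOTCH2 at a log2 fold change of 0.29, against 0.27 with all libraries. The 0.5 µM replicate 2 library also lay far from its replicates, with a chi-square per degree of freedom over gene counts of 26.9 and 31.2, against 3.41 to 7.56 for the other pairs within a group. Without it, 8 of 9 Notch genes passed at 0.5 µM, 9 of 9 at 1.5 µM and 4 between the doses.

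At 0.5 µM JQ1 against DMSO, 8 of the 9 tested Notch genes passed, 2 higher and 6 lower, beside 70% of all tested genes (35.3% higher, 34.7% lower). Of the 9, 5 changed by at least 2-fold, all of them lower, beside 14.9% of all tested genes (4.82% higher, 10.1% lower). At 1.5 µM all 9 passed, 3 higher and 6 lower, beside 73.1% of all tested genes (36.9% higher, 36.2% lower). Here 7 changed by at least 2-fold, 1 higher and 6 lower, beside 18.8% of all tested genes (7.05% higher, 11.8% lower). The median size of the log2 fold change over the 9 genes was 1.10 at 0.5 µM and 1.34 at 1.5 µM, against 0.38 and 0.43 over all tested genes. Because the 9 genes were chosen with earlier results of these data known, these contrasts with all tested genes describe them and do not test the pathway. The groups did not overlap for 8 of 9 Notch genes at 0.5 µM (72.6% of all tested genes) and for 9 of 9 at 1.5 µM (81.7%).

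**Figure D1:**
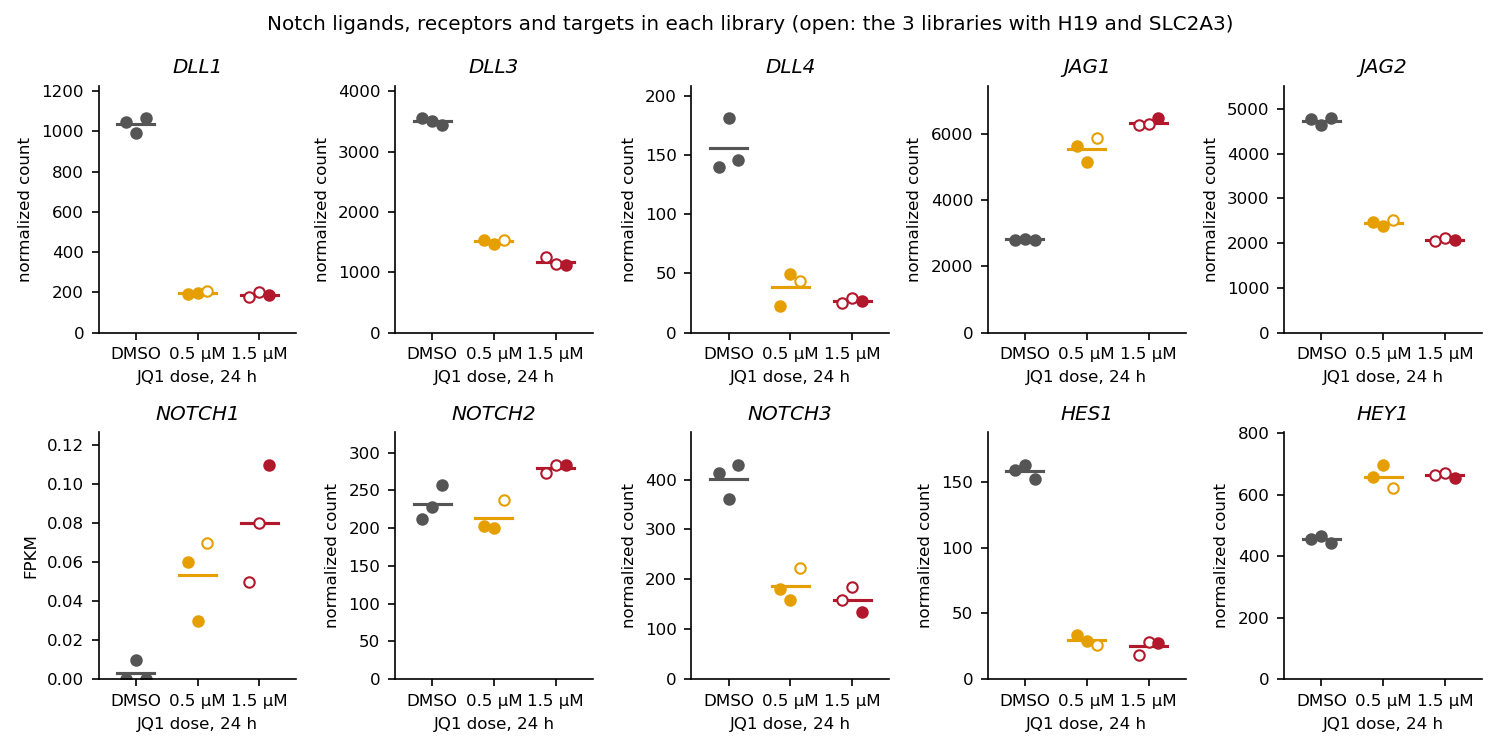
Value of each Notch gene in every library, in dose order (y axis, normalized count, FPKM for NOTCH1; each axis starts at 0; points are libraries, bars are means of 3; open points are the 3 libraries that held H19 and SLC2A3). DLL1, DLL3, DLL4, JAG2, NOTCH3 and HES1 lay lower in all 6 JQ1 libraries than in DMSO, and JAG1 and HEY1 lay higher.

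Among the ligands, DLL1, a Delta-like ligand that activates receptors on neighbouring cells, had 1045, 992 and 1066 normalized counts in DMSO, 193, 198 and 205 at 0.5 µM, and 178, 201 and 185 at 1.5 µM. All JQ1 libraries lay far below all DMSO libraries, and the doses overlapped. DLL1 (ENSG00000198719.7) fell 5.18-fold at 0.5 µM (limma log2 fold change -2.37 ± 0.071 with its SE over 3 libraries a group, adjusted p = 1.95e-09) and 5.49-fold at 1.5 µM (-2.46 ± 0.071, adjusted p = 6.87e-10). At 1.5 µM, 491 of 17514 tested genes had a more negative log2 fold change.

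DLL3, the ligand that acts inside the cell that makes it and inhibits Notch, had 3555, 3502 and 3442 normalized counts in DMSO, 1542, 1469 and 1533 at 0.5 µM, and 1259, 1143 and 1126 at 1.5 µM. The 3 groups formed 3 separate steps with no overlap. DLL3 (ENSG00000090932.6) fell 2.31-fold at 0.5 µM (-1.21 ± 0.048) and 2.98-fold at 1.5 µM (-1.57 ± 0.048, limma adjusted p = 8.96e-10).

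DLL4, a ligand best known from growing blood vessels, was the lowest of the 5, with 139.9, 181 and 146 normalized counts in DMSO, 22.8, 49.3 and 43.9 at 0.5 µM, and 24.7, 29.3 and 26.7 at 1.5 µM. Both JQ1 groups lay below DMSO, and the 0.5 µM libraries spread around those at 1.5 µM. DLL4 (ENSG00000128917.5) fell 4.12-fold at 0.5 µM (-2.04 ± 0.27) and 5.59-fold at 1.5 µM (-2.48 ± 0.27, limma adjusted p = 1.04e-05). Of 9 endothelial markers, 8 had FPKM values, and TEK, VWF and EMCN were at 0 in all 9 libraries. The summed FPKM of the 8 was 1.22 to 1.29 in DMSO, 0.50 to 0.63 at 0.5 µM and 0.60 to 0.90 at 1.5 µM, most of it from CLDN5, which is also made outside vessels, and its part in the change of DLL4 was not tested.

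The Jagged ligands moved in opposite directions. JAG1 had 2800.5, 2837 and 2810.2 normalized counts in DMSO, 5630.5, 5142 and 5871 at 0.5 µM, and 6269, 6291 and 6478 at 1.5 µM. Every JQ1 library lay above every DMSO library, and every 1.5 µM library above every 0.5 µM library. JAG1 (ENSG00000101384.7) rose 1.97-fold at 0.5 µM (0.98 ± 0.045) and 2.25-fold at 1.5 µM (1.17 ± 0.045, limma adjusted p = 4.02e-09). JAG2 had 4764, 4647 and 4789.7 normalized counts in DMSO, 2470.3, 2381 and 2524 at 0.5 µM, and 2038, 2119 and 2059.9 at 1.5 µM. Its 3 groups were also separate, in the other direction. JAG2 (ENSG00000184916.4) fell 1.93-fold at 0.5 µM (-0.95 ± 0.035) and 2.28-fold at 1.5 µM (-1.19 ± 0.035, limma adjusted p = 7.7e-10).

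**Figure D2:**
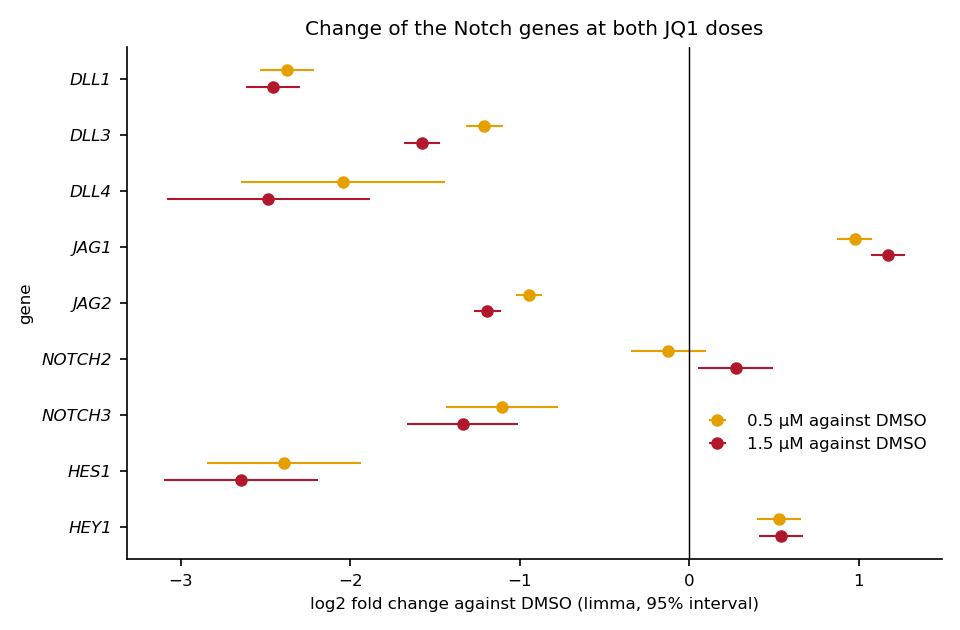
The 9 tested Notch genes (y axis) and their log2 fold change against DMSO (x axis), at 0.5 µM (orange) and 1.5 µM (red) JQ1, with the 95% interval of the limma fit. The interval reached 0 only for NOTCH2 at 0.5 µM, and JAG1 and HEY1 were positive at both doses.

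Per transcript length, in FPKM, the order of the ligands changed. In DMSO, DLL3 was the most abundant at 29.1 ± 0.546 FPKM (SD, n = 3), followed by JAG2 at 23.9 ± 0.742, JAG1 at 7.32 ± 0.025, DLL1 at 5.00 ± 0.185 and DLL4 at 0.767 ± 0.083, with no overlap between neighbours. At 0.5 µM, JAG1 led at 14.6 ± 1.03 FPKM, and JAG2 (12.1 ± 0.647) and DLL3 (11.8 ± 0.514) overlapped. At 1.5 µM, JAG1 had 16.2 ± 0.291 FPKM, JAG2 9.68 ± 0.316 and DLL3 9.15 ± 0.586, with JAG2 and DLL3 again overlapping, and DLL1 had 0.870 ± 0.053. In DMSO, HEY1 (3.23 FPKM) stood above HES1 (1.67), followed by NOTCH3 (0.913), which overlapped DLL4. Below NOTCH3 and DLL4, without overlap, came NOTCH2 (0.313) and then NOTCH1. At 1.5 µM, HEY1 (4.64 FPKM) stood above DLL1, and NOTCH3 (0.393) and NOTCH2 (0.390) overlapped. NOTCH2 stood above HES1 (0.257), which NOTCH3 overlapped, and below HES1 came DLL4 (0.127) and NOTCH1 (0.080).

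The 5 ligand genes together had 66.1, 65.4 and 66.6 FPKM in DMSO, 40.1, 37.3 and 41.4 at 0.5 µM, and 36.7, 35.7 and 35.7 at 1.5 µM. The sum was lower in every JQ1 library, and in FPKM the 2 doses did not overlap. DLL3 made up 44.0% ± 0.941 of the sum in DMSO, 29.9% ± 0.494 at 0.5 µM and 25.4% ± 1.22 at 1.5 µM (SD, n = 3). JAG1 made up 11.1% ± 0.102 in DMSO, 36.8% ± 0.738 at 0.5 µM and 45.0% ± 1.49 at 1.5 µM. A second gene ID named JAG1, at 0 to 0.16 FPKM in the 9 libraries, was not added to these values. The ratio of JAG1 to DLL3 FPKM was 1.78 ± 0.142 at 1.5 µM, against 0.252 ± 0.0055 in DMSO. For the sum, each share and the ratio, the groups did not overlap between either dose and DMSO (2-sided exact permutation test, p = 0.1, the smallest that 3 against 3 libraries allow). The sum in FPKM was 0.599 times the DMSO sum at 0.5 µM and 0.546 times at 1.5 µM. In normalized counts, which are not divided by length, it was 0.797 times and 0.801 times the DMSO sum. There the doses overlapped, with sums of 9238 to 10178 at 0.5 µM and 9769 to 9876 at 1.5 µM.

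**Figure D3:**
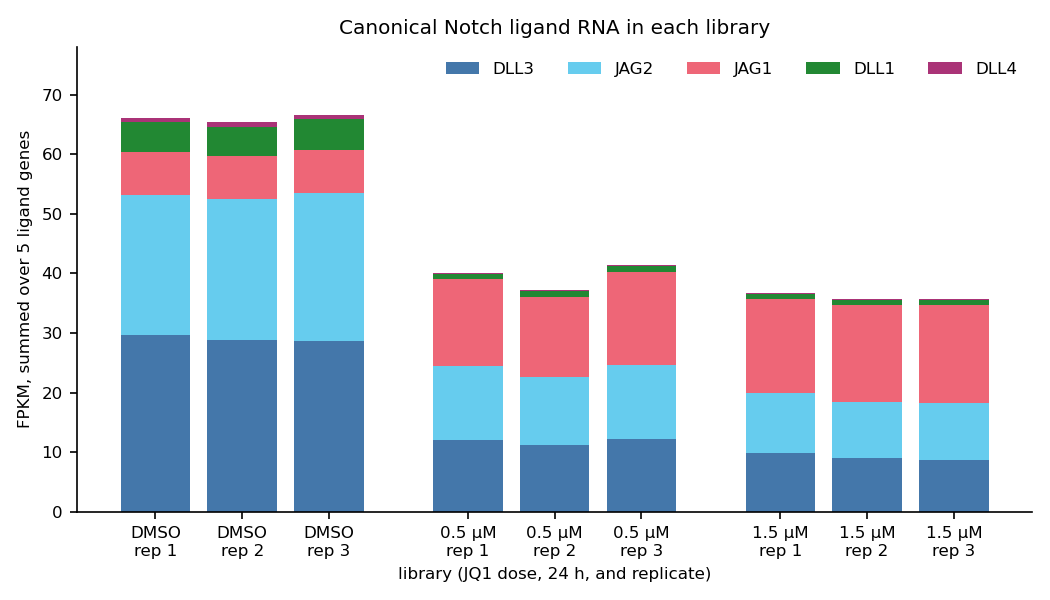
Summed FPKM of the 5 canonical Notch ligand genes (y axis) in each library (x axis, DMSO, 0.5 µM and 1.5 µM JQ1), with each gene's part in its own colour. The 6 JQ1 bars end between 35.7 and 41.4 FPKM, below the DMSO bars, and the JAG1 part is larger in each of them.

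DLK1, a non-canonical ligand that lacks the domain by which Delta and Jagged proteins bind receptors, exceeded all 5 of them in FPKM. It had 619.9 ± 5.85 FPKM in DMSO, 206 ± 15.1 at 0.5 µM and 208 ± 8.84 at 1.5 µM, which was 9.38, 5.20 and 5.75 times the summed FPKM of the canonical ligands. DLK1 fell at both doses (log2 fold changes of normalized counts -1.55 ± 0.051 and -1.51 ± 0.051, SE, n = 3, limma adjusted p = 3.28e-09 and 1.77e-09).

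The receptors were low. NOTCH3, a receptor known mostly from vascular smooth muscle, had 413, 361 and 430.0 normalized counts in DMSO, 181, 158 and 223 at 0.5 µM, and 158, 184 and 135 at 1.5 µM. All JQ1 libraries lay below DMSO, and the doses overlapped. NOTCH3 (ENSG00000074181.4) fell 2.15-fold at 0.5 µM (-1.10 ± 0.15) and 2.53-fold at 1.5 µM (-1.34 ± 0.15, limma adjusted p = 1.17e-05). Its FPKM spread more widely between replicates, 0.68 to 1.17 in DMSO, 0.32 to 0.99 at 0.5 µM and 0.24 to 0.61 at 1.5 µM, and on FPKM the call at 0.5 µM was lost (-0.50, limma adjusted p = 0.298, within 4.02e-11 to 0.298 over 22 alternatives).

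NOTCH2, a widely expressed receptor, had 212, 228 and 257 normalized counts in DMSO, 203, 199.6 and 237 at 0.5 µM, and 273, 284 and 283 at 1.5 µM. The 0.5 µM libraries overlapped DMSO, and the 1.5 µM libraries lay above both. At 0.5 µM the log2 fold change was -0.12 with a 95% interval of -0.34 to 0.098 (limma adjusted p = 0.29). NOTCH2 (ENSG00000134250.13) rose at 1.5 µM (0.27 ± 0.099, limma adjusted p = 0.0284), a call that 6 of 21 alternatives did not keep (adjusted p from 0.0138 to 0.141), among them leaving out DMSO replicate 1 or 2 or 1.5 µM replicate 2 or 3 (0.108, 0.0746, 0.0738 and 0.0707). NOTCH2NL, a near-identical copy of part of NOTCH2, was listed at 0 to 0.09 FPKM, and reads shared between the copies could be split by the counting.

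NOTCH1, the receptor most studied in development and leukaemia, was listed at 0, 0.01 and 0 FPKM in DMSO, 0.06, 0.03 and 0.07 at 0.5 µM, and 0.05, 0.08 and 0.11 at 1.5 µM. All JQ1 libraries lay above all DMSO libraries (2-sided exact permutation test, p = 0.1 at either dose, the smallest possible with 3 against 3), at levels far below the other receptors, and no fold is given against a group listed at or near 0. NOTCH1 overlaps the antisense gene AL592301.1 (GENCODE 29), and the strand setting of the counting was not given in the sources used here. Its value is therefore uncertain, as are those of DLL1 and JAG1, which overlap FAM120B and AL050403.2 on the opposite strand. The same limit holds for other pathway genes named below that overlap an opposite-strand gene. Among them, NEURL2 overlaps the protein-coding gene CTSA, DTX3L PARP9, APH1A C1orf54, DTX4 MPEG1 and MAML3 MGST2. The summed FPKM of NOTCH1, NOTCH2 and NOTCH3 plus NOTCH4, the fourth receptor gene, was 2.24 to 2.52 in DMSO, 1.90 to 2.86 at 0.5 µM and 1.84 to 2.27 at 1.5 µM, and overlapped between all groups. NOTCH4 alone had 1.01 to 1.35 FPKM in DMSO and did not pass at either dose (log2 fold changes 0.36 and 0.054, limma adjusted p = 0.0736 and 0.782).

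The 2 target genes moved apart. HES1, a repressor that holds back proneural transcription factors, had 159, 163 and 152 normalized counts in DMSO, 33.2, 29.3 and 25.9 at 0.5 µM, and 18.6, 28.4 and 27.7 at 1.5 µM. All JQ1 libraries lay far below DMSO, and the doses overlapped. HES1 (ENSG00000114315.3) fell 5.25-fold at 0.5 µM (-2.39 ± 0.20, limma adjusted p = 2.1e-06) and 6.25-fold at 1.5 µM (-2.65 ± 0.20, adjusted p = 7.11e-07), and 398 of 17514 tested genes (2.27%) had a more negative log2 fold change at 1.5 µM. Its counts at JQ1 rest on 18 to 32 reads per library.

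HEY1, a related repressor that is also a direct Notch target, had 456, 467 and 444 normalized counts in DMSO, 658, 697 and 621 at 0.5 µM, and 663, 671 and 656 at 1.5 µM. Every JQ1 library lay above every DMSO library, and the doses overlapped. HEY1 (ENSG00000164683.12) rose 1.44-fold at 0.5 µM (0.53 ± 0.058, limma adjusted p = 1.37e-05) and 1.45-fold at 1.5 µM (0.54 ± 0.058, adjusted p = 9.33e-06). In FPKM, HEY1 had 4.53 to 4.72 at 1.5 µM, against 3.11 to 3.39 in DMSO, and HES1 had 0.20 to 0.29 at 1.5 µM, against 1.60 to 1.72 in DMSO.

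The rest of the family was as divided. Of 11 other HES and HEY family genes, 5 were tested, and all 5 passed at both doses, 3 higher and 2 lower, beside 70% of all tested genes at 0.5 µM and 73.1% at 1.5 µM. HES4, a repressor close to HES1, had 588, 593 and 580.5 normalized counts in DMSO, 397, 391 and 389 at 0.5 µM, and 309, 322 and 309.8 at 1.5 µM, and fell at both doses (log2 fold changes -0.58 ± 0.056 and -0.90 ± 0.056, SE, n = 3). BHLHE40, a related repressor that also responds to hypoxia and other signals, fell (-1.17 ± 0.44 at 0.5 µM, limma adjusted p = 0.0346, and -1.46 ± 0.44 at 1.5 µM, adjusted p = 0.0118), and 0.5 µM replicate 3, with 49.6 normalized counts, stood near the 54.4 to 63.9 of DMSO. Its call at 0.5 µM was lost in 7 alternatives (adjusted p from 0.0520 to 0.111), among them leaving out any 1 DMSO library or 0.5 µM replicate 1 or 2.

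HEYL, another direct Notch target, had 103, 93.3 and 135 normalized counts in DMSO, 264, 223 and 278 at 0.5 µM, and 303, 311 and 303 at 1.5 µM, and rose at both doses (log2 fold changes 1.21 ± 0.14 and 1.48 ± 0.14). HEY2, known from heart and vessel development, had 2932 to 2979.7 normalized counts in DMSO, 3947 to 4045 at 0.5 µM and 3821 to 3930.4 at 1.5 µM, and rose at both doses (0.43 ± 0.030 and 0.39 ± 0.030). HES6, which opposes HES1 and favours neurons, was the most abundant of the family and had 138 ± 3.62 FPKM in DMSO, 204 ± 3.08 at 0.5 µM and 220.0 ± 14.6 at 1.5 µM (SD, n = 3), and rose at both doses (log2 fold changes of normalized counts 0.64 ± 0.039 and 0.76 ± 0.039). So HES1, HES4 and BHLHE40 fell at both doses, and HEY1, HEY2, HEYL and HES6 rose.

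**Figure D4:**
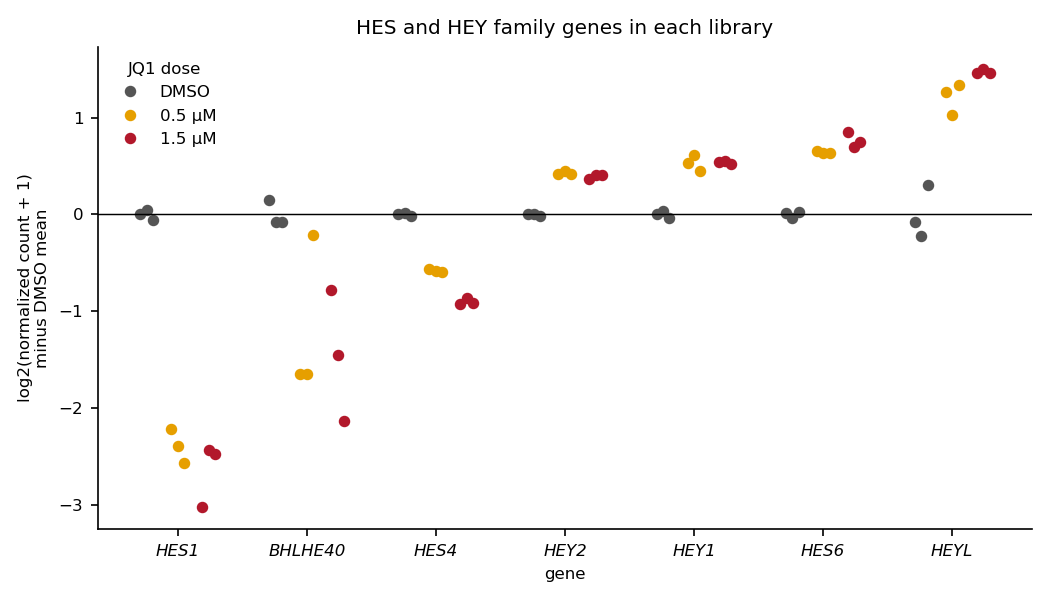
Log2(normalized count + 1) of the 7 tested HES and HEY family genes minus the gene's DMSO mean (y axis), for each library of DMSO (grey), 0.5 µM JQ1 (orange) and 1.5 µM JQ1 (red). HES1, BHLHE40 and HES4 lie below 0 in all 6 JQ1 libraries, and HEY2, HEY1, HES6 and HEYL above 0.

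The start-site regions of 4 family members are shown because they hold the same short sequence although their RNAs moved in both directions. Capitals mark TGGGAA, the core of the sequence that RBPJ is known to bind, or its reverse complement TTCCCA. Each sequence runs 5′ to 3′ in the direction of the gene, from 250 bases before the RefSeq start to 20 after it, in GRCh38.p14, which is not the hg19 build of the deposited values: HES1 at chr3:194135898-194136167 (plus strand), HES4 at chr1:1000078-1000347 (minus strand), HEYL at chr1:39639624-39639893 (minus strand) and HEY2 at chr6:125749382-125749651 (plus strand).
HES1: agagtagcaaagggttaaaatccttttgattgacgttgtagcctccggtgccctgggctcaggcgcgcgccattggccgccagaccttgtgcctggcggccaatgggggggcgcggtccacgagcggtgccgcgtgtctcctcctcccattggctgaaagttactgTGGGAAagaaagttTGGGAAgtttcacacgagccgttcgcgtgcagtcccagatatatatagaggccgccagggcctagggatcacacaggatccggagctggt
HES4: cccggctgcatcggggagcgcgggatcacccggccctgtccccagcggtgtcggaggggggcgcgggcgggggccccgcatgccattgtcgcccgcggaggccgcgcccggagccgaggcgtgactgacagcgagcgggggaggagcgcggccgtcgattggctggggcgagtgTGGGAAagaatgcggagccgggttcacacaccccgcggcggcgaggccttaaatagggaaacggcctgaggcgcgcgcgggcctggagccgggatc
HEYL: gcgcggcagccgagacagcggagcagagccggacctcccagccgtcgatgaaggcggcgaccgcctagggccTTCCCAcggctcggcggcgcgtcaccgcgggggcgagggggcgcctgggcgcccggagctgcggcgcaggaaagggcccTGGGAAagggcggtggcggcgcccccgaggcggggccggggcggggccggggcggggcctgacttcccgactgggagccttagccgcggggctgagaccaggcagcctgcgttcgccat
HEY2: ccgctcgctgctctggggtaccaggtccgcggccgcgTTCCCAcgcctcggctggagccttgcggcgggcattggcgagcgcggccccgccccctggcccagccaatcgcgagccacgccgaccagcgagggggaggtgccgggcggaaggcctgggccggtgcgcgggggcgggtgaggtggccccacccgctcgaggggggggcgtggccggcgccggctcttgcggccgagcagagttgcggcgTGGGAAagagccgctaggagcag
Both strands of the 300 bases from 250 before to 50 after each start were searched. TGGGAA was in 24.0% of all 35116 RefSeq windows of that length, and 3.80% held it at least 2 times. HES1, HEYL and HEY2 each held it 2 times and HES4 held it 1 time. The longer GTGGGAA, which always contains a TGGGAA, was in 6.25% of windows and in all 4 of these. HES1 alone of the 4 held CACNAG, which HES proteins are known to bind (in mouse, also before their own gene), at 4 places, where 38.0% of all windows hold at least 1. Windows were found for 7 of the 10 Notch genes and for all 11 other HES and HEY genes, and TGGGAA was not in those of DLL4, JAG1, JAG2, NOTCH1, NOTCH2, NOTCH3, HES2, HES6, HES7 or BHLHE40. HES5, which was not tested, held it 2 times, and HES3, HELT and BHLHE41, also not tested, held it 1 time each. A match describes the letters and does not show a bound site.

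Between the doses, 4 of the 9 Notch genes passed at 1.5 µM against 0.5 µM, 2 higher and 2 lower, beside 12.7% of all tested genes (4.66% higher, 8.09% lower). The doses did not overlap for these 4, as for 33.7% of all tested genes, and 0 of the 9 differed by 2-fold, beside 0.228% of all tested genes (0.0457% higher, 0.183% lower). DLL3 fell further (-0.37 ± 0.048, limma adjusted p = 0.00137), as did JAG2 (-0.25 ± 0.035, adjusted p = 0.00216). JAG1 (0.20 ± 0.045, limma adjusted p = 0.0209) and NOTCH2 (0.40 ± 0.099, limma adjusted p = 0.0286) rose. The other 5 did not pass, and the 95% intervals of their log2 differences were -0.24 to 0.076 for DLL1, -1.04 to 0.16 for DLL4, -0.56 to 0.095 for NOTCH3, -0.71 to 0.20 for HES1 and -0.12 to 0.14 for HEY1. Leaving out the 3 libraries with H19 and SLC2A3, which leaves 1 library at 1.5 µM, no Notch gene passed between the doses (limma and edgeR 0 of 9, with 4 at an unadjusted p under 0.05 in each), and the adjusted p was 0.0695 for DLL3, 0.154 for JAG2, 0.165 for JAG1 and 0.248 for NOTCH2. The JAG1 and NOTCH2 calls were also lost when 1.5 µM replicate 1, 2 or 3 was left out (0.0545, 0.0683 and 0.0868 for JAG1; 0.0664, 0.0978 and 0.0919 for NOTCH2), and each over its alternatives ranged from 0.00171 to 0.165 and from 0.0167 to 0.248.

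The other genes of the pathway came from a list of 80, of which 67 were tested. At 0.5 µM, 50 of 67 passed, 25 higher and 25 lower, and at 1.5 µM 54 passed, 25 higher and 29 lower. That was 74.6% and 80.6%, beside 70% and 73.1% of all tested genes. The median log2 fold change over the 67 was -0.0019 at 0.5 µM and 0.054 at 1.5 µM, against -0.010 and -0.0030 over all tested genes, and their median size was 0.37 and 0.47, against 0.38 and 0.43. The log2 fold changes below are given for 0.5 µM and then for 1.5 µM, each against DMSO, with the SE (n = 3).

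Of 5 tested enzyme genes that modify the receptors' sugars, 4 fell and 0 rose at each dose, where 34.7% (0.5 µM) and 36.2% (1.5 µM) of all tested genes were lower. MFNG, a fringe enzyme that changes which ligands a receptor answers to, had 5153, 4776 and 4941 normalized counts in DMSO, 1542, 1332 and 1517 at 0.5 µM, and 1182, 1099 and 1090.5 at 1.5 µM. Its 3 groups did not overlap, and it fell at both doses (-1.76 ± 0.061 and -2.14 ± 0.061, limma adjusted p = 3.97e-09 and 6.02e-10). LFNG, another fringe enzyme, fell by less (-0.31 ± 0.072 and -0.51 ± 0.072), as did POGLUT1, which adds glucose (-0.37 ± 0.042 and -0.40 ± 0.042). POFUT1, which adds fucose, fell least of the 4 (-0.10 ± 0.034 at both doses, limma adjusted p = 0.018 and 0.021), and its calls were lost on FPKM (0.0584 and 0.102), without DMSO replicate 3 (0.0623 and 0.0708) and in 3 more alternatives at each dose (up to 0.125 and 0.149). RFNG, the other fringe enzyme, did not pass (-0.0086 ± 0.049 and -0.013 ± 0.049, limma adjusted p = 0.884 and 0.815).

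Of 5 tested ubiquitin ligase genes that help ligands to be taken up, a step needed for signalling, 2 rose and 2 fell at each dose. Among all tested genes, 35.3% were higher and 34.7% lower at 0.5 µM, and 36.9% higher and 36.2% lower at 1.5 µM. NEURL fell (-1.45 ± 0.076 and -1.81 ± 0.076) and so did NEURL2 (-0.93 ± 0.31 and -1.39 ± 0.31), while MIB1 (0.58 ± 0.052 and 0.71 ± 0.052) and MIB2 (0.83 ± 0.042 and 0.82 ± 0.042) rose. NEURL2 did not pass at 0.5 µM without DMSO replicate 1 or 2 or 0.5 µM replicate 3 (limma adjusted p = 0.0584, 0.0547 and 0.0549) or without the 3 libraries with H19 (0.0651). NEURL1B did not pass (0.15 ± 0.068 and 0.14 ± 0.068, limma adjusted p = 0.068 and 0.0901). Of 9 protease genes, 3 rose and 4 fell at 1.5 µM, beside 36.9% of all tested genes higher and 36.2% lower. ADAM10, which cuts the receptor after it binds a ligand, rose (0.38 ± 0.043 and 0.56 ± 0.043). FURIN, which processes the receptor on its way to the surface, fell (-0.42 ± 0.051 and -0.58 ± 0.051), and so did APH1A, a gamma-secretase subunit (-0.36 ± 0.031 and -0.53 ± 0.031).

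In the nuclear complex, 4 of 9 tested genes rose and 4 fell at 1.5 µM, beside 36.9% of all tested genes higher and 36.2% lower. The acetyltransferase pair KAT2B (1.62 ± 0.15 and 1.49 ± 0.15) and KAT2A (-0.86 ± 0.034 and -1.05 ± 0.034) moved in opposite directions. MAML3, a Mastermind coactivator, fell (-0.23 ± 0.039 and -0.44 ± 0.039), and EP300, an acetyltransferase that Mastermind recruits, rose (0.21 ± 0.055 and 0.43 ± 0.055), its call at 0.5 µM being lost without the 3 libraries with H19 (limma adjusted p = 0.0642). RBPJ itself had a log2 fold change of 0.078 ± 0.035 at 0.5 µM (limma adjusted p = 0.0694) and 0.096 ± 0.035 at 1.5 µM (limma adjusted p = 0.0296). Of 14 corepressor genes, 8 rose and 3 fell at 1.5 µM, beside 36.9% of all tested genes higher and 36.2% lower. TLE1 and TLE2, Groucho-type corepressors that HES proteins recruit, moved in opposite directions: TLE1 rose to 25.3 ± 0.670 FPKM at 1.5 µM, against 9.11 ± 0.125 in DMSO, and TLE2 fell to 25.4 ± 0.730 FPKM, against 77.6 ± 1.19 in DMSO (SD, n = 3). Their log2 fold changes of normalized counts were 1.32 ± 0.032 and 1.54 ± 0.032 for TLE1 and -1.21 ± 0.038 and -1.51 ± 0.038 for TLE2. SPEN, a corepressor that binds RBPJ, rose (0.28 ± 0.059 and 0.47 ± 0.059), and so did CTBP1, a further corepressor (0.40 ± 0.033 and 0.45 ± 0.033).

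Among 13 genes of receptor turnover and feedback, 8 fell at each dose, while 4 rose at 0.5 µM and 3 at 1.5 µM, beside 34.7% and 36.2% of all tested genes lower and 35.3% and 36.9% higher. The Deltex ubiquitin ligases fell together: DTX3 (-1.14 ± 0.047 and -1.71 ± 0.047), DTX1, itself a known Notch target in lymphocytes (-1.02 ± 0.063 and -1.50 ± 0.063), DTX3L (-1.18 ± 0.055 and -1.49 ± 0.055) and DTX4 (-1.40 ± 0.13 and -1.22 ± 0.13). NRARP, a feedback gene of the same list, did not fall. It had 916 to 952 normalized counts in DMSO, 1020 to 1175 at 0.5 µM and 971 to 1032 at 1.5 µM. Among the other receptor and non-canonical ligand genes, 2 of 7 tested rose and 2 fell at each dose, beside the same shares of all tested genes. DNER, a neuronal Notch ligand, rose (1.12 ± 0.035 and 1.30 ± 0.035), as did CNTN1, a neuronal adhesion protein (0.46 ± 0.040 and 0.47 ± 0.040), and MFAP2, a microfibril protein that can bind Jagged ligands, fell beside DLK1 (-0.92 ± 0.059 and -1.49 ± 0.059). MFAP5 was at 54.1 to 75.2 normalized counts in the 3 libraries with H19 and SLC2A3 and at 0 in the other 6, and TLE4, counted above among the corepressors that rose at 1.5 µM, was at 19.2 to 51.5 in those 3 and at 4.06 to 14.4 in the other 6.

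**Figure D5:**
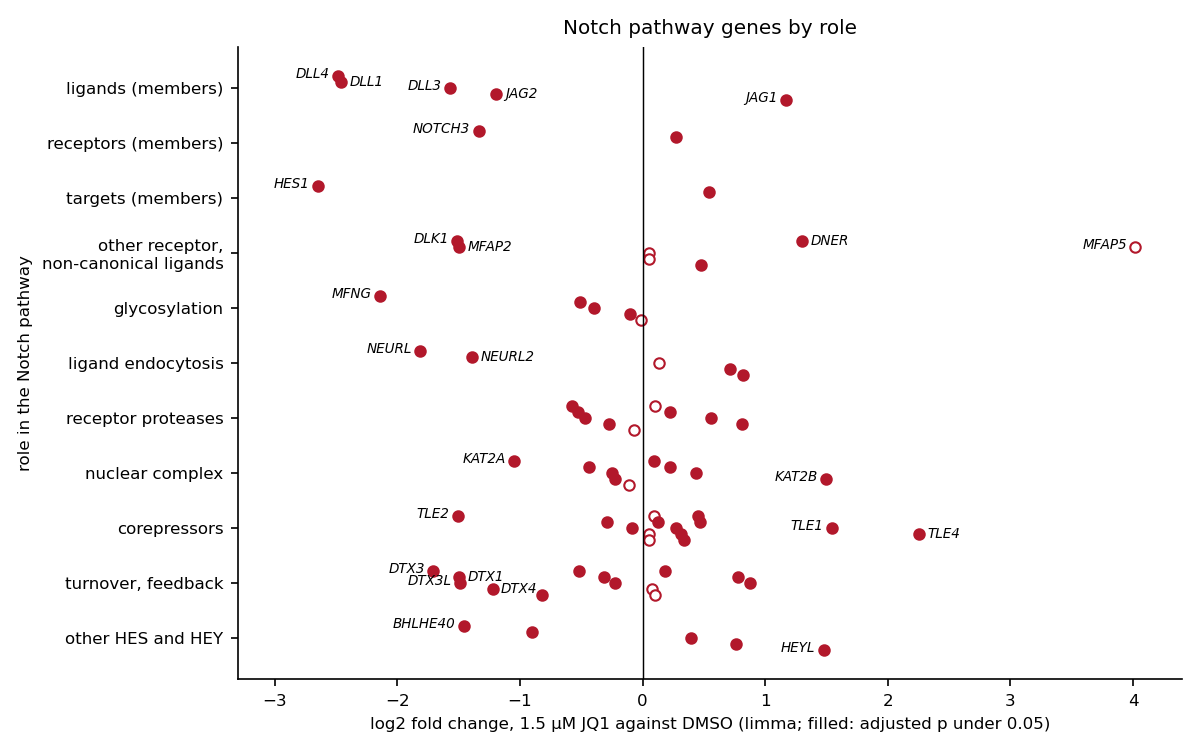
Log2 fold change at 1.5 µM JQ1 against DMSO (x axis) of every tested Notch pathway gene, by role (y axis; filled points passed limma at an adjusted p under 0.05, open points did not; points are spread vertically for legibility). The Deltex genes and MFNG lie left of 0 with DLL1, DLL4 and HES1, and DNER, TLE1, KAT2B and HEYL lie right of it with JAG1.

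Genes whose pattern over the 6 JQ1 libraries was most like that of HES1, HEY1 or DLL3 were found by the mean absolute difference of log2(normalized count + 1) minus the DMSO mean, among 12367 genes. For HES1 they were EYS (0.094), PARP14, an ADP-ribosyltransferase (0.17), and PHF15 (0.17). For HEY1 they were SMARCD1, a subunit of the BAF chromatin remodeller (0.022), GADD45A, a stress response gene (0.022), and FAM173B (0.022). For DLL3 they were ARHGEF19 (0.040), CLN3, a lysosomal membrane protein (0.048), and BAALC (0.049).

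The 19 listed names of non-neuroendocrine markers held CYR61 and CTGF also under their other names, CCN1 and CCN2, which had no values. The 17 markers all had FPKM values, and 13 were tested, of which 2 rose and 8 fell at each dose. Among all tested genes 35.3% were higher and 34.7% lower at 0.5 µM, and 36.9% higher and 36.2% lower at 1.5 µM. The summed FPKM of the 17 markers was 111 to 116 in DMSO, 51.3 to 59.8 at 0.5 µM and 45.1 to 51.1 at 1.5 µM, with no overlap between JQ1 and DMSO, and CD44 alone had 79.9 to 83.4 FPKM in DMSO. The 3 tested markers that did not pass spread widely within each JQ1 group. At 0.5 µM, YAP1 had 12.4 to 148 normalized counts, ANXA1 3.52 to 292 and ANXA3 13.5 to 75.5. At 1.5 µM they had 7.18 to 178, 4.10 to 450 and 7.18 to 71.1, and in DMSO 10.1 to 12.2, 144 to 178 and 30.1 to 32.4. CAV1, CAV2 and AXL were at or under 0.14 FPKM in every library. The 7 fibroblast markers summed to 15.8 to 16.9 FPKM in DMSO, 5.56 to 14.2 at 0.5 µM and 5.09 to 11.8 at 1.5 µM. Among the JQ1 libraries, this sum was 11.5 to 14.2 in the 3 with H19 and 5.09 to 5.81 in the others, and COL1A2 alone had 15.2 FPKM on average in DMSO. The 6 leukocyte markers summed to 0.62 to 0.87 FPKM in DMSO, 0.19 to 0.26 at 0.5 µM and 0.07 to 0.26 at 1.5 µM. The part of these markers in the changes of HES1, NOTCH3 and the ligands was not tested.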

How the data were processed

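RNA from 9 libraries was analysed from 2 deposited tables. Per the submitters' processing notes, the tools were cutadapt, STAR and RSEM with the hg19 build, with no versions given in the sources used here. The deposited normalized counts are a signal per gene that the authors made by dividing read counts by a factor for each library. The authors' FPKM values are deposited to 2 decimals. Whole reads could be recovered for 100% of normalized counts (tolerance 0.001) and served for depth and 2 alternatives.

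Genes with at least 10 normalized counts in at least 3 libraries were tested as log2(normalized count + 1) with limma 3.58.1 (trended, R 4.3.3) in 1 fit of all 9 libraries, with Benjamini-Hochberg adjustment over 17514 genes. Library was the unit of replication, and groups came from the labels. The scripts were tested on simulated data. Ligand sums, shares and NOTCH1 were compared by exact permutation tests. On recovered counts, edgeR 4.0.16 called 12240, 12897 and 2283 genes (0.5 µM against DMSO, 1.5 µM against DMSO, 1.5 µM against 0.5 µM) and DESeq2 1.42.0 called 12161, 12808 and 2853, where limma called 12255, 12806 and 2233. Other alternatives changed the pseudocount (0.1 or 5), the filter (none or 50), the scaling, the trend, the libraries fitted and the values (FPKM), or left out libraries.

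The Notch genes, the pathway lists and the markers were chosen with earlier results of these data known. Named from each role list were at most 4 genes that passed at 1.5 µM against DMSO, with a mean of at least 20 normalized counts, by size of the log2 fold change. For likeness in pattern, genes with a mean of at least 100 were ranked and 3 were named for each. HEY2, NOTCH4, RBPJ, NOTCH2NL, NRARP, MFAP5 and TLE4 lie outside this rule and were named after their values were seen. Gene overlaps came from GENCODE 29. The replicate number was not used as a block in the main fit. Results of some genes that the rule names are not reported here.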

Additional observations from a re-analysis of the deposited data

How the results depend on the processing

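Among the log2 fold changes of Notch genes under alternatives, 565 kept their direction and their side of the threshold, 23 lost the call, 1 gained it and 2 changed sign. The 2 were HEY1 between the doses, a difference that did not pass, at -0.0469 without the 3 libraries with H19 and SLC2A3 and -0.0305 without 0.5 µM replicate 3 (-0.0305 to 0.0531 over single left-out libraries). DLL4 gained a call between the doses without 0.5 µM replicate 1 (-0.77, limma adjusted p = 0.0384).

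Between the doses, Notch genes called numbered 2 on FPKM, 2 in a fit to the 6 JQ1 libraries and 0 without the 3 libraries, against 4. All genes called were 892, 1123 and 48 under these settings, against 2233, and pathway genes called were 12 on FPKM and 2 without the 3 libraries, against 20. Fewer samples enter the fits to 6 libraries and without the 3, and the lone 1.5 µM sample is then assumed to vary like the others. The cause of the change on FPKM was not tested. Leaving out single libraries gave 2 to 4 Notch genes, 1002 (without 1.5 µM replicate 2) to 3217 genes in all (without 0.5 µM replicate 2) and 15 to 22 pathway genes between the doses. Against DMSO it gave 8 to 8 Notch genes at 0.5 µM and 8 to 9 at 1.5 µM.

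In normalized counts in place of FPKM, the ligand sum differed from DMSO by -2481 at 0.5 µM and -2430 at 1.5 µM, and the share of DLL3 by -13.1 and -16.6 percentage points. A block for the replicate number gave 8, 9 and 4 Notch genes and 12329, 12852 and 2030 genes in all (0.5 µM against DMSO, 1.5 µM against DMSO, between the doses), and same-numbered libraries did not deviate together (correlations of -0.385 to 0.131, with 2 of 9 libraries closest to their own number). At JQ1, HES1 and DLL4 rest on 18 to 42 reads per library, which limits their difference between the doses.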

Other observations

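Proneural transcription factors, which HES1 is known to repress, were also measured. Of 10 listed, 6 were tested, and 1 rose and 4 fell at 0.5 µM, where 35.3% of all tested genes were higher and 34.7% lower. At 1.5 µM, 1 rose and 5 fell, where 36.9% were higher and 36.2% lower. NEUROD1, which defines the subtype, rose (limma log2 fold changes 0.44 at 0.5 µM and 0.48 at 1.5 µM). NEUROD6, a factor of cortical neurons, fell by 4.64 and 5.41 on the log2 scale, and NEUROD2 by 0.99 and 1.38. ASCL2 was listed at 0 in all 9 libraries.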
